A study of Mus musculus with 12 samples.

Results

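The cytosolic ribosomal protein genes encode the proteins of the ribosome that works outside mitochondria. They were taken as the protein-coding genes whose mouse symbols begin with Rpl or Rps followed by a digit, together with Rplp0, Rplp1, Rplp2 and Rpsa, without ribosomal S6 kinases and named pseudogenes. The rule found 86 of the 21839 genes in the count table: 43 proteins of the large (60S) subunit, 31 of the small (40S) subunit including Rpsa, the 3 stalk proteins, 8 paralogues that replace or resemble a standard protein, and Rps19bp1, a protein that binds Rps19 and carries a matching symbol. They lie on 19 chromosomes. A filter on low counts kept 84 for testing, among 11766 tested genes. The others were Rpl3l, which had 0 to 6 reads per library, and Rpl10l, which had 1 read in all 12 libraries together.

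The libraries came from C57BL/6 mice that all carried loxP-flanked Atg5, a gene needed for autophagy, and the study asked how regulatory T cells look when dendritic cells lack that process. The 4 groups of 3 libraries each were TG High, WT High, TG Low and WT Low. TG mice were Atg5 flox/flox CD11c Cre +/-, in which Cre is driven by a promoter active mainly in dendritic cells, and WT mice were littermates of genotype Atg5 flox/flox CD11c Cre -/-. T cells are not the cells that the Cre is aimed at, so Atg5 in these libraries does not check the labels. CD4+ CD62L+ cells of spleen and inguinal, cervical and brachial lymph nodes were sorted for high or low CD25, the interleukin-2 receptor chain encoded by Il2ra. The sources used here do not give the ages or sexes of the mice, how many mice gave each library, or what the replicate numbers mark. Nothing says that replicates are separate animals, so p-values measure the spread between these libraries, which may be technical.

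Total counts ran from 6767828 in TG High replicate 2 to 23942479 in WT High replicate 2. All 7 listed markers of CD4 and regulatory T cells were detected in each group, and their summed level was 5485 to 7509 CPM (reads of a gene scaled to its library's total, with TMM factors) over the libraries. Il2ra was at 1141 to 1261 CPM in TG High and 509.6 to 714.9 CPM in TG Low, and at 1072 to 1309 CPM in WT High and 481.0 to 734.3 CPM in WT Low. Foxp3, which marks regulatory T cells, was at 982.7 CPM or more in each of the 12 libraries. The Il2ra ranges of the gates did not overlap in either genotype. High minus Low for Il2ra was 1.00 (SE 0.16) in TG and 1.01 (SE 0.16) in WT on the log2 scale, and it was not called without the replicate block (edgeR adjusted p = 0.0819 and 0.0634) but was with it (2.14e-05 and 1.42e-05). Foxp3 was present in the CD25 Low cells as well.

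A ribosome is built in the nucleolus from ribosomal RNA and about equal numbers of most of these proteins, so their genes are made in large and roughly matched amounts. The 40S subunit reads the mRNA, the 60S subunit joins amino acids, and the stalk recruits the factors that drive elongation. Many of these mRNAs begin with a C followed by an unbroken run of C and T, the 5′ terminal oligopyrimidine (TOP) motif, through which the growth kinase mTORC1 controls their translation. T cells leaving rest raise ribosome production, and regulatory T cells depend on mTORC1 signalling. In the nucleus, Rpl5 and Rpl11 can hold back Mdm2, the enzyme that marks p53 for degradation.

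The motif could be read at annotated starts for part of the set. RefSeq (GRCm38.p6) gave promoter entries for 66 of the 86 genes and none for the other 20. A C at the start base followed by at least 4 further C or T was found for 14 of the 66 genes, and in 14 of their 78 promoter entries (17.9%). The same letters, read on the strand that matches the mRNA, were found in 823 of all 32851 promoter entries (2.51%). They were found in 0 of 75 entries of mitochondrial ribosomal protein genes, and in 2 of 13 entries (15.4%) of elongation factors and other genes known for TOP mRNAs. The match depends on the base that the annotation gives as the start, and no match says only that these letters do not stand at that base. The windows below are shown because they carry the sequence feature that the set is known for. Each holds 10 bases before the start and 20 from it, and the capitals mark the run of C and T that begins at the start base.
Rps6 (40S, the target of S6 kinase; chr4:86857348-86857377, minus strand): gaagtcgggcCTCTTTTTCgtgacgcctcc
Rps18 (40S; chr17:33955646-33955675, minus strand): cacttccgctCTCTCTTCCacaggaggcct
Rpl15 (60S; chr14:18270967-18270996, minus strand): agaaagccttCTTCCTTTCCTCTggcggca
Rpl35 (60S; chr2:39005112-39005141, minus strand): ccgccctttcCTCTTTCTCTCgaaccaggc
Rpl28 (60S; chr7:4792955-4792984, plus strand): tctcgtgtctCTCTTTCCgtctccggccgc
Rplp2 (stalk; chr7:141447641-141447670, plus strand): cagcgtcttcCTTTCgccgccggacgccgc
Rps27 (40S; chr3:90213629-90213658, minus strand): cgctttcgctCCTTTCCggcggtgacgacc
Rps27rt (copy of Rps27; chr9:114982720-114982749, minus strand): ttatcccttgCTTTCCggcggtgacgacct
The runs differ in length between members, with 13 bases in Rpl15 and 5 bases in Rplp2. The windows of Rps27 and Rps27rt share an unbroken run of 19 bases, which begins inside the capitals.

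The genes were far from equal in their counts. Per length, the level (mean CPM per kilobase of exon over the 12 libraries) of tested members ran from 0.613 to 542.7, with a median of 15.9. Exon length here is the merged length of all annotated exons of a gene, from coding and other transcripts alike. It can exceed the length of the main mRNA and so lower the level per kb. The part of annotation in the order of these levels was not tested. The 6 highest members held 36.8% of all counts in the set, and among them were Rpl4 at 542.7, Rpl32 at 435.9, Rplp1 at 432.1 and Rpl8 at 380.6 CPM per kb. Rpl4 (chr9:64173375-64178666, plus strand) is a 60S protein that lines the exit tunnel. The 6 lowest tested members were Rpl28 at 0.613, Rpl5 at 0.847, Rpl39l at 1.00, Rpl11 at 1.09, Rpl36a at 1.15 and Rps12 at 1.22 CPM per kb. Of these only Rpl39l, known from testis, is not a standard part of the ribosome. The median level per kb was 17.4 for 40S genes, 11.6 for 60S genes and 123.5 for the stalk genes.

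Ribosomal protein genes have many processed pseudogenes, which are reverse-copied mRNAs inserted elsewhere in the genome, and a read that fits both cannot be placed by sequence. Of the 86 members, 82 shared at least one 50-base stretch of their protein-coding transcripts with an annotated pseudogene. The share of a member's 50-base windows that also occurred in another annotated gene had a median of 35.8% and a maximum of 95.1%. Rpl7a, a 60S protein at 8.67 CPM per kb, shared windows with 121 pseudogenes, the most of any member. With 100-base windows, the 29 members with the lowest shares (0% to 16.1%) had a median level of 51.2 CPM per kb, the 28 in the middle 20.7 and the 29 with the highest shares (42.9% to 89.5%) 7.32. Across the 86 genes, which are not independent of each other, Spearman's rho between level and shared windows was -0.34 with 50-base and -0.46 with 100-base windows. The order had exceptions on both sides. Rpl39l shared no window and was among the 6 lowest tested members, while Rpl28 shared 29.0% of its 100-base windows and was the lowest tested member. Rps3a1, which shared 45.3% of its 100-base windows, stood at 131.4 CPM per kb. How the counting treated reads with several matches is not given in the sources used here, and the part of such reads in these levels was not tested.

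**Figure D1:**
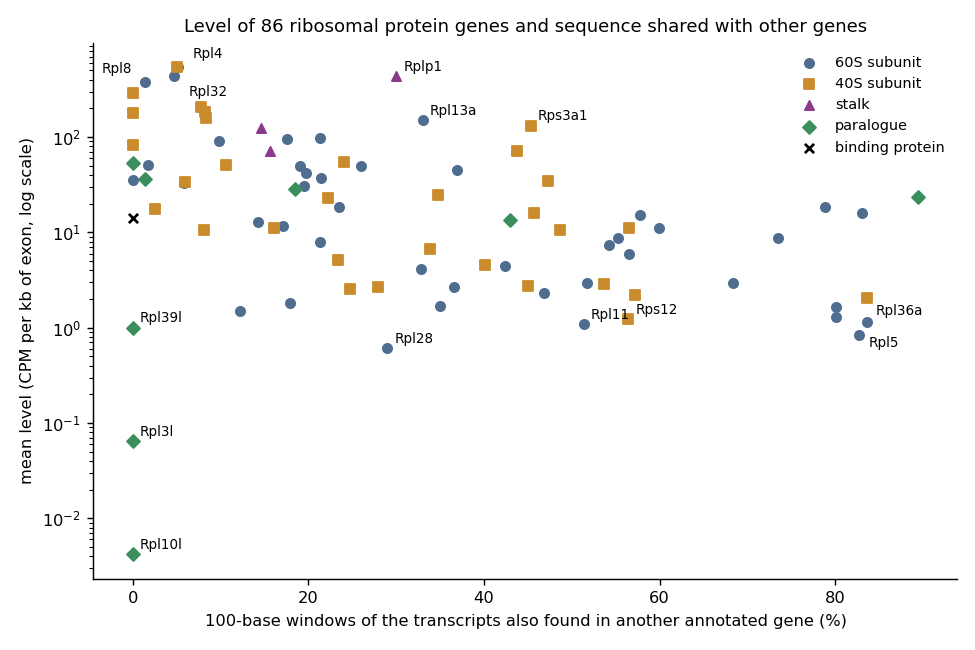
Mean level over 12 libraries (CPM per kb of exon, log axis) of each of the 86 genes against the share of its 100-base windows that also occur in another annotated gene, with subunits by colour and marker. Levels of tested members span 0.613 to 542.7, and the 2 genes at the bottom are the untested Rpl3l and Rpl10l.

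The paralogues differed widely from their standard partners. The counting could have divided the reads of close copies, which was not tested. The merged exon length of the partners also depends on which transcripts are annotated, and its part was not tested. The share of 50-base windows found in other genes was 91.1% for Rps27rt, 58.9% for Rpl22l1, 22.05% for Rpl36al and 16.2% for Rps27l. It was 7.60% for Rpl10l, 7.48% for Rpl7l1, and 0% for Rpl39l and Rpl3l. Rps27l, known in human cells as a p53 target, was at 53.5 CPM per kb and Rps27rt at 23.6, against 4.54 for Rps27. Rpl36al stood at 28.7 CPM per kb against 1.15 for Rpl36a, its partner on the X chromosome, which shared 85.5% of its 50-base windows with other genes. In the other pairs the standard gene was the higher one. Rpl7 was at 49.9 CPM per kb and Rpl7l1 at 36.5. Rpl22, which in mice is needed for the development of alpha beta T cells, was at 35.6 and Rpl22l1 at 13.6. Rpl39 was at 51.2 and Rpl39l at 1.00. Rpl3l, known from striated muscle, and Rpl10l, known from testis, had almost no reads, while Rpl3 was at 11.1 and Rpl10 at 2.95 CPM per kb. Rpsa, a 40S protein also described as a laminin-binding protein, was at 5.17 CPM per kb, and the stalk genes Rplp0 and Rplp2 were at 123.5 and 72.1.

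Set against the whole library, the 86 genes took under 1% of the counts. The share was 0.986%, 0.837% and 0.910% in TG High replicates 1 to 3, and 0.985%, 0.633% and 0.871% in WT High. It was 0.985%, 0.845% and 0.910% in TG Low, and 0.875%, 0.813% and 0.800% in WT Low. The TG library of each same-numbered pair had the larger share in 6 of 6 pairs, but in the first High pair the 95% binomial intervals overlapped. Those intervals cover the counting error of reads only. The reads carry no molecular identifiers, so copies of a molecule made by amplification are counted as separate reads. The High groups overlapped, and in the Low gate TG replicate 2 lay below WT replicate 1. Group means were 0.911% ± 0.0749 in TG High and 0.830% ± 0.180 in WT High, and 0.913% ± 0.0701 in TG Low and 0.829% ± 0.0401 in WT Low (SD, n = 3 each). In bulk RNA, fewer cells of a type and less RNA per cell cannot be told apart.

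**Figure D2:**
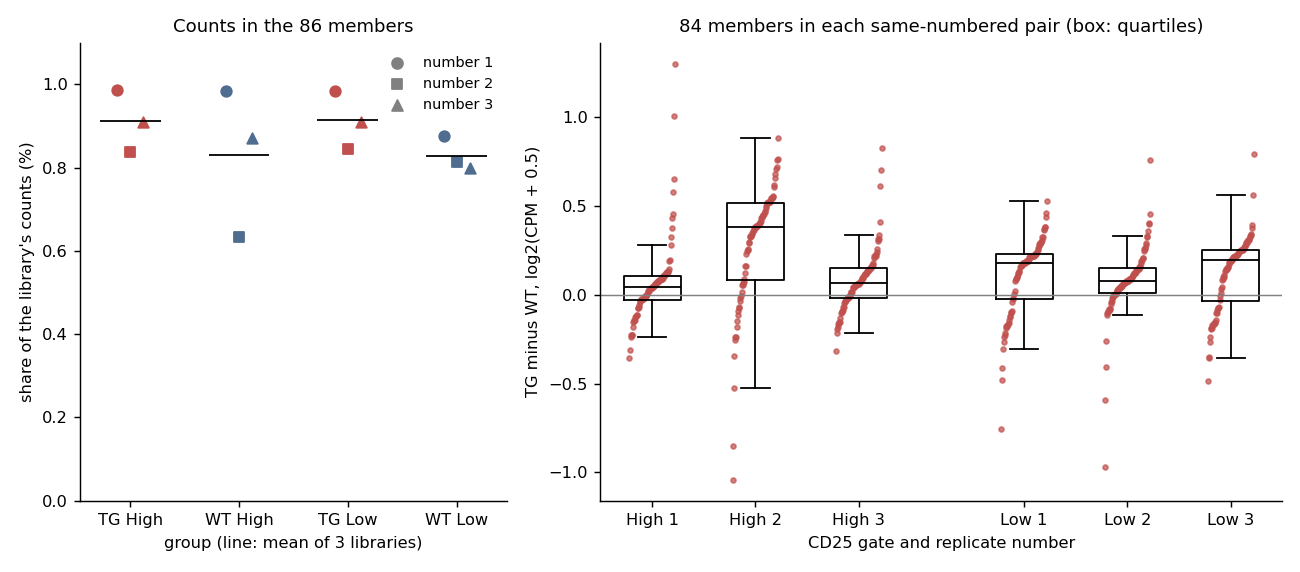
Left, share of each library's counts in the 86 genes (percent, marker shape for replicate number, line for the group mean). Right, TG minus WT difference in log2(CPM + 0.5) for 84 members in each same-numbered pair, with 1 point per gene and boxes at the quartiles; the second High pair has the largest median, 0.38, and the first the smallest, 0.04.

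No ribosomal protein gene passed the test between genotypes in the CD25 High gate, although most fitted differences were above 0. Of 84 members, 0 were called at an adjusted p of 0.05 by edgeR, as were 0% of all tested genes. Unadjusted p was under 0.05 for 2 members (2.38%) by edgeR, against 0.841% of all tested genes, and for 3 by DESeq2, without the replicate block. With the block it was under 0.05 for 9 members (10.7%) by edgeR, against 3.55% of all tested genes. The fitted TG minus WT log2 difference was above 0 for 76 of the 84, with a median of 0.15, against a median of 0.01 over all tested genes. All 31 40S genes and all 3 stalk genes were on that side, with medians of 0.15 and 0.20. The 95% intervals lay within 1.5-fold either way for 54 members and within 2-fold for 77.

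Rpl13, a 60S protein, was among the members with the smallest p in this comparison. It had 48.4, 66.6 and 47.6 CPM in TG High and 45.4, 42.0 and 45.02 CPM in WT High, and its difference was 0.29 (SE 0.13; edgeR adjusted p = 1). TG High replicate 2 stood apart in Rpl13. Rpl4 had 1086, 1235 and 1118 CPM in TG High and 1106, 901.7 and 1008 CPM in WT High, with a difference of 0.19 (SE 0.09; edgeR adjusted p = 1). The groups of Rpl4 overlapped. On the other side, the 3 members with the smallest p were Rpl36a at -0.34 (SE 0.34), Rpl31 at -0.17 (SE 0.25) and Rpl9 at -0.14 (SE 0.26), with adjusted p = 1 by edgeR for each. The sign of Rpl9 and Rpl31 turned with single libraries left out: Rpl9 was at 0.090 without WT High replicate 3 and 0.06 without TG High replicate 2, and Rpl31 at 0.0039 without WT High replicate 1. Groups did not overlap, with TG higher, for 3 members, Rpl13 among them, where 1.98% of all tested genes did the same, and with TG lower for 0, where 2.29% did.

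The lean toward TG in the High gate rested on WT High replicate 2. With that library left out, 38 of 84 differences were above 0 and their median was -0.01, or 55 and 0.03 when the numbers entered as a block. With WT High replicate 1 left out, the median was 0.27, and with TG High replicate 1, 2 or 3 left out it was 0.11, 0.20 and 0.13. Among the same-numbered pairs, 52, 68 and 57 of the 84 members were higher in TG, with medians of 0.04, 0.38 and 0.06, while 49.7% to 52.97% of all tested genes were over the 6 pairs of both gates.

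In the CD25 Low gate the fitted differences leaned the same way and again none passed. By edgeR 0 of 84 members were called, against 0% of all tested genes, and 0 had an unadjusted p under 0.05 by edgeR or by DESeq2 without the replicate block. With the block, 5 members (5.95%) had one by edgeR, against 3.25% of all tested genes. The log2 difference was above 0 for 69 of 84 members, with a median of 0.14 against 0.01 over all tested genes, and the median stayed between 0.10 and 0.17 when each library was left out in turn. Here 61, 67 and 61 members were higher in TG in the 3 pairs, with medians of 0.18, 0.08 and 0.19. The 95% intervals lay within 1.5-fold for 53 members and within 2-fold for 79. TG and WT did not overlap, with TG higher, for 13 of 84 members, where 1.58% of all tested genes did the same.

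Rps19, a 40S protein whose human gene is mutated in Diamond-Blackfan anaemia, had the smallest p. It was at 242.1, 264.0 and 279.7 CPM in TG Low and at 215.3, 244.7 and 231.0 CPM in WT Low, and the groups overlapped. The difference was 0.19 (SE 0.11; edgeR adjusted p = 1.00). Next were Rpl18 at 0.16 (SE 0.10) and Rpl14 at 0.18 (SE 0.12), both 60S proteins. Rplp2, an acidic stalk protein, was among the 13 without overlap. It had 161.8, 160.6 and 165.6 CPM in TG Low and 153.2, 155.0 and 125.9 CPM in WT Low. Rpl28 was the 1 member without overlap that was lower in TG, where 1.72% of all genes did the same, at 1.02, 0.555 and 0.954 CPM in TG Low and 1.39, 1.09 and 1.13 CPM in WT Low. Its difference was -0.51 (SE 0.38; edgeR adjusted p = 1.00) and rested on few reads, since it had 253 in all 12 libraries. Rpl12 at -0.26 (SE 0.26) and Rpl36 at -0.24 (SE 0.28) followed, both 60S proteins.

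Across both gates, 19 members were higher in TG in 6 of 6 same-numbered pairs, where 3.47% of all tested genes were, and 0 were lower in 6 of 6, where 1.95% were. They included Rplp0, Rplp2, Rpl8 and Rpl32. Members are not independent of each other within a library. The second High pair, with 68 of 84 members higher in TG and a median of 0.38, holds WT High replicate 2. The lean in that gate rested on this library. The genotype difference averaged over the gates, which was added after these values were seen, called 0 members by edgeR without the block and 0 with it, against 0% and 0.051% of all tested genes. Unadjusted p was under 0.05 for 3 members (3.57%) without the block and for 25 (29.8%) with it, against 1.39% and 6.64% of all tested genes, and the smallest adjusted p with the block was 0.493. The averaged difference was not refitted without WT High replicate 2. Markers of other cells also differed between genotypes in their fitted values. Of the B cell markers 5 of 5 and of the proliferation genes 6 of 6 had a TG minus WT difference above 0 in each gate, as had all 4 tested myeloid or dendritic cell markers and the 1 tested marker each of plasma cells and erythroid cells. Of the 4 NK cell markers 1 was above 0 in each gate, with medians of -0.50 in High and -0.18 in Low, and of the 2 CD8 T cell markers 1 was above 0 in High and 2 in Low. None of these markers was called. The summed B cell level was higher in TG in 5 of 6 pairs and the summed proliferation level in 6 of 6, and their part in the differences was not tested.

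**Figure D3:**
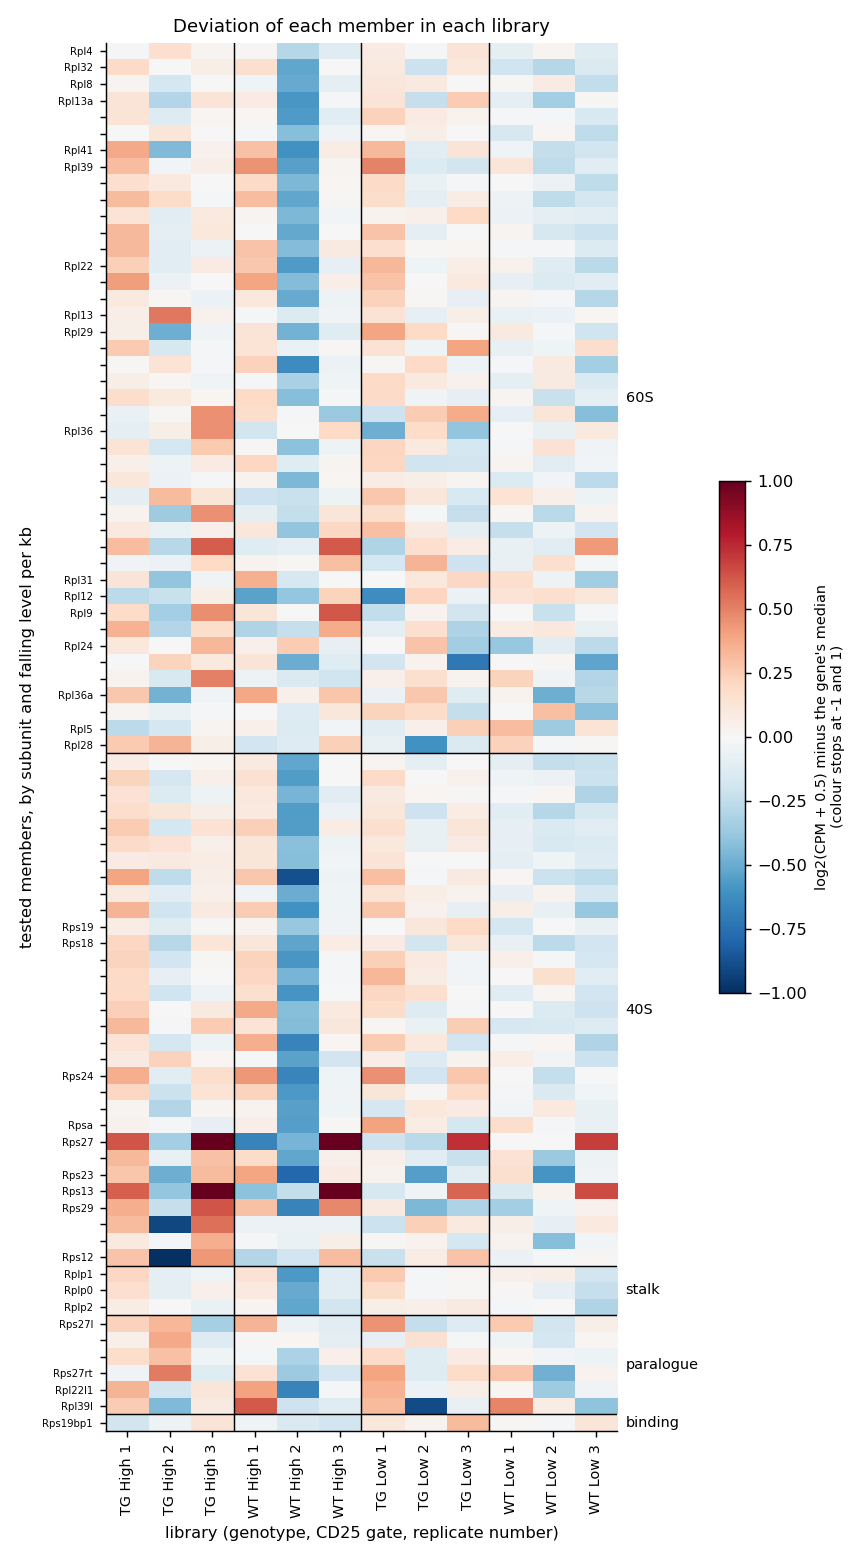
Log2(CPM + 0.5) of each of 84 members minus that gene's median over 12 libraries (blue below, red above, colours stop at -1 and 1), with libraries in columns genes by subunit and falling level in rows, and names given for a selection of rows. The WT High 2 column is blue over most rows, and Rps27 and Rps13 are dark red in TG High 3 and WT High 3.

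No member was called between the CD25 gates, in a test that did not call Il2ra either without the block. In TG, High minus Low was above 0 for 44 of 84 members, with a median of 0.01, and 0 were called by edgeR, against 0.0085% of all tested genes. In WT it was above 0 for 43 members, with a median of 0.002, and 0 were called, against 0.051%. Without the block, no member had an unadjusted p under 0.05 by edgeR or by DESeq2 in either genotype. With it, 1 member in TG (1.19%) and 0 in WT had one by edgeR, against 12.2% and 9.22% of all tested genes. The 95% intervals lay within 1.5-fold for 61 members in TG and for 63 in WT. With the block, 0 members were called in TG, against 1.68% of all tested genes, and 0 in WT, against 1.63%. The TG and the WT comparison use libraries of the genotype comparisons again, so they are not separate evidence. In WT the balance depended on single libraries: without WT High replicate 2 the median was 0.16 with 73 of 84 above 0, and without WT High replicate 1 it was -0.13 with 17 above 0. The 3 WT pairs had 62, 12 and 70 members higher in the High gate.

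The members with the smallest p were mostly low ones. In TG, Rpl28 was at 1.43, 1.53 and 1.17 CPM in High cells and at 1.02, 0.555 and 0.954 CPM in Low cells, so that the groups did not overlap, for a difference of 0.69 (SE 0.38; edgeR adjusted p = 0.999). It was the 1 such member on that side, where 4.22% of all tested genes were, and 0 members were without overlap on the lower side, where 3.84% were. Rps29, a 40S protein with a zinc finger, differed by 0.67 (SE 0.44) and Rpl36 by 0.42 (SE 0.29). Rpl29 was lower by -0.34 (SE 0.19), Rps19bp1 by -0.19 (SE 0.13) and Rps19 by -0.12 (SE 0.11) on the same log2 scale. In WT, Rpl36a was at 2.63, 1.98 and 2.397 CPM in High cells and 1.95, 1.20 and 1.47 CPM in Low cells, for a difference of 0.60 (SE 0.34; edgeR adjusted p = 1). Rpl9 and Rpl24 also had no overlap on that side, at 0.39 (SE 0.26) and 0.43 (SE 0.32), where 4.49% of all tested genes had none. Rps19bp1 at -0.17 (SE 0.13), Rpl8 at -0.16 (SE 0.13) and Rpl12 at -0.35 (SE 0.26) had the smallest p on the lower side. The groups of Rps19bp1 and of Rpl19 did not overlap, with High lower, where 4.37% of all tested genes did the same; Rpl19 was chosen for this after its values were seen.

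The genotype differences of the gates, High minus Low, were not called apart for any member by edgeR, against 0% of all tested genes, and 0 members had an unadjusted p under 0.05 by edgeR or DESeq2. The difference of effects was above 0 for 46 of 84 members with a median of 0.01. Rpl28 had the smallest p, at 0.83 (SE 0.54; edgeR adjusted p = 1.00), and Rpl13 stood on the same side at 0.21 (SE 0.18). On the other side were Rpl36a at -0.68 (SE 0.48), Rpl31 at -0.36 (SE 0.36) and Rpl29 at -0.24 (SE 0.27).

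A single library stood apart. WT High replicate 2 had the lowest level of the 12 libraries in 55 of 84 members, while it was the lowest for 6.61% of all tested genes. The median deviation of members there, taken as log2(CPM + 0.5) minus each gene's median over the 12 libraries, was -0.44. By subunit it was -0.53 for 40S genes, of which 31 of 31 lay below their median, -0.39 for 60S genes, -0.52 for the stalk and -0.26 for the paralogues. The drop was not equal. Rplp1 was at 145.2 CPM in this library against 190.7 to 260.7 CPM in the other 11. Rpl28, Rpl5 and Rpl36a were not at their lowest there. In the other libraries the median deviation of members ran from -0.13 in WT Low replicate 3 to 0.17 in TG High replicate 1. TG Low replicate 1 was the highest library for 20 members, where 14.6% of all tested genes were highest, and TG High replicate 1 for 17, where 9.18% were.

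Other translation genes did not all follow. In WT High replicate 2, the median deviation was -0.31 for 17 elongation factors and other TOP mRNA genes. Eef1a1, the factor that brings aminoacyl-tRNA to the ribosome, was at 873.5 CPM there against 1003 to 1270 CPM in the other 11 libraries. The median was -0.07 for 77 mitochondrial ribosomal proteins, -0.03 for 51 ribosome assembly factors, -0.02 for 29 initiation factors and -0.04 for 14 genes of the RNA polymerase I machinery, which makes ribosomal RNA. Single genes could differ from these medians. Of the Eif3 subunits, which act in initiation, Eif3e, Eif3f, Eif3h, Eif3i, Eif3k and Eif3m were at their lowest there. Eif3i was at 93.18 CPM against 103.6 to 145.8 CPM in the other 11 libraries. Eif3a, Eif3b, Eif3c, Eif3d, Eif3g, Eif3j1 and Eif3l were not at their lowest. Members with a TOP start in RefSeq had a median of -0.44 and those with another start -0.42. Members in the lowest, middle and highest groups of shared 100-base windows had medians of -0.50, -0.47 and -0.21. Member transcripts are short, with a median of 704 bases against 2168 for other tested genes. Other genes of up to 500 bases had a median deviation of -0.05 in this library, and those of 500 to 1000 bases -0.03. The library had the largest total count of the 12, and its marker sums of B cells and proliferating cells lay within the range of the other libraries numbered 2 and 3. Among the libraries numbered 2 both sums were the lowest. The B cell sum was 33.67 CPM against 39.44 to 73.31 CPM, and the proliferation sum 35.15 CPM against 37.35 to 46.55 CPM. The part of transcript length, total count or other cells in the low values was not tested.

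**Figure D4:**
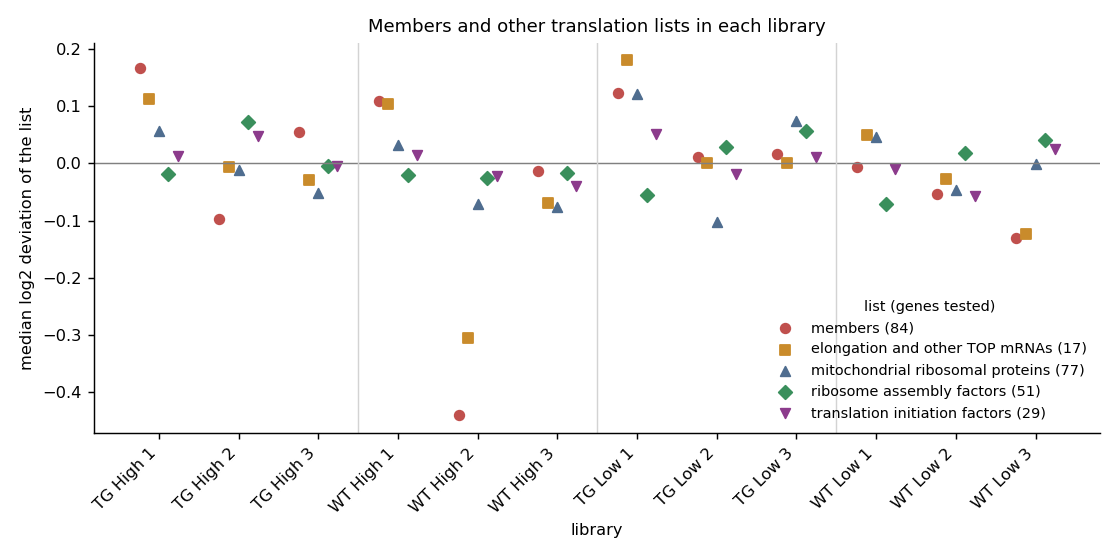
Median log2 deviation of 5 gene lists in each of the 12 libraries, with the number of tested genes in the legend. In WT High 2 the members (-0.44) and the elongation and other TOP mRNA genes (-0.31) lie below the other 3 lists, which lie between -0.07 and -0.02.

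In the genotype comparisons the related lists held 0 called genes by edgeR. In the High gate, TG minus WT was above 0 for 16 of the 17 elongation and TOP mRNA genes with a median of 0.12, for 54 of 77 mitochondrial ribosomal proteins with a median of 0.04, and for 38 of 51 assembly factors with a median of 0.03. In the Low gate these counts were 14, 63 and 35, with medians of 0.10, 0.06 and 0.03. Eef1g, a subunit of an elongation factor, had the smallest p of these lists in the Low gate, at 0.24 (SE 0.11; edgeR adjusted p = 1.00). Fbl, the nucleolar methyltransferase fibrillarin, had it in the High gate at 0.35 (SE 0.14; edgeR adjusted p = 1). Of 14 listed genes that link mTORC1 to TOP mRNAs, 3 were above 0 in the High gate and 8 in the Low gate.

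Members were called by replicate number about as often as all tested genes were. With the groups held constant, 27 of 84 members differed between the 3 numbers (edgeR F test, adjusted p under 0.05), while 34.3% of all tested genes did, so the count was near the background. The direction was uneven. Number 1 against number 2 called 30 members higher and 0 lower, with a median of 0.24, where 16.8% of all tested genes were called higher and 11.5% lower. Number 1 against number 3 called 3 higher and 2 lower, against 13.4% and 8.2%, and number 2 against number 3 called 0 higher and 8 lower, against 6.43% and 5.99%. Of the 27, number 2 had the lowest mean for 26 and Rps27l was the exception. Number 1 had the highest mean for 23, and number 3 for Rpl13a, Rps27, Rps13 and Rpl10. By part of the ribosome, 13 of 31 40S genes, 10 of 43 60S genes, 2 of 3 stalk genes and 2 of 6 tested paralogues were among the 27. With the 4 libraries numbered 1 left out, 6 members were called (7.14%), against 8.08% of all tested genes. Without WT High replicate 1, 13 were called (15.5%), against 28%, and without TG Low replicate 1, 16 (19.0%), against 24.8%. Without WT High replicate 2, 19 were called (22.6%), against 31.7%. That library is numbered 2, and most members were at their lowest there. The directions between numbers were not refitted without it.

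Rpl13a, a 60S protein that in human monocytes can leave the ribosome to block translation of inflammatory mRNAs, differed most firmly. In order of replicate number it was at 358.2, 267.9 and 359.0 CPM in TG High, 347.6, 218.4 and 326.2 CPM in WT High, 358.7, 279.3 and 390.5 CPM in TG Low and 308.3, 258.9 and 329.9 CPM in WT Low. Number 2 was the lowest in each of the 4 groups. Number 1 minus number 2 was 0.43 (SE 0.07; edgeR adjusted p = 0.000309) and number 2 minus number 3 was -0.46 (SE 0.07; edgeR adjusted p = 0.000650). Rps24, a 40S protein, was at 81.3, 58.5 and 71.5 CPM in TG High, 85.6, 39.9 and 61.5 CPM in WT High, 87.0, 55.4 and 76.3 CPM in TG Low and 63.1, 53.6 and 63.3 CPM in WT Low. Its difference of number 1 minus number 2 was 0.62 (SE 0.10; edgeR adjusted p = 0.000455). Rpl41, the smallest ribosomal protein, differed by 0.58 (SE 0.10), Rpl39, which sits at the exit tunnel, by 0.59 (SE 0.10) and Rpl22l1 by 0.61 (SE 0.11). All of these were lowest in number 2 in at least 3 of the 4 groups.

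Rps27 and Rps13, both 40S proteins, followed another pattern. Rps27 was at 5.89, 2.76 and 9.43 CPM in TG High, 2.09, 2.49 and 8.41 CPM in WT High, 3.07, 2.93 and 6.36 CPM in TG Low and 3.65, 3.6 and 6.16 CPM in WT Low. Number 3 was the highest in all 4 groups, and number 2 minus number 3 was -1.31 (SE 0.23; edgeR adjusted p = 0.00204). Rps13 was at 8.70, 4.13 and 12.5 CPM in TG High, 4.07, 4.64 and 13.4 CPM in WT High, 4.92, 5.402 and 8.58 CPM in TG Low and 4.98, 5.73 and 9.05 CPM in WT Low, with number 2 minus number 3 at -1.06 (SE 0.21; edgeR adjusted p = 0.00521). TG High replicate 1 was above the other libraries numbered 1 in both genes. Rps27 shared 46.2% and Rps13 33.5% of 50-base windows with other genes. Rps18 at -0.34 (SE 0.08) and Rps23, which lies near the decoding centre, at -0.78 (SE 0.20) were also lower in number 2 than in number 3. Rps27l ran the other way from Rps27 and was higher in number 1 than in number 3 by 0.45 (SE 0.12; edgeR adjusted p = 0.0156), as were Rpl39 by 0.40 (SE 0.10) and Rpl22 by 0.27 (SE 0.09).

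**Figure D5:**
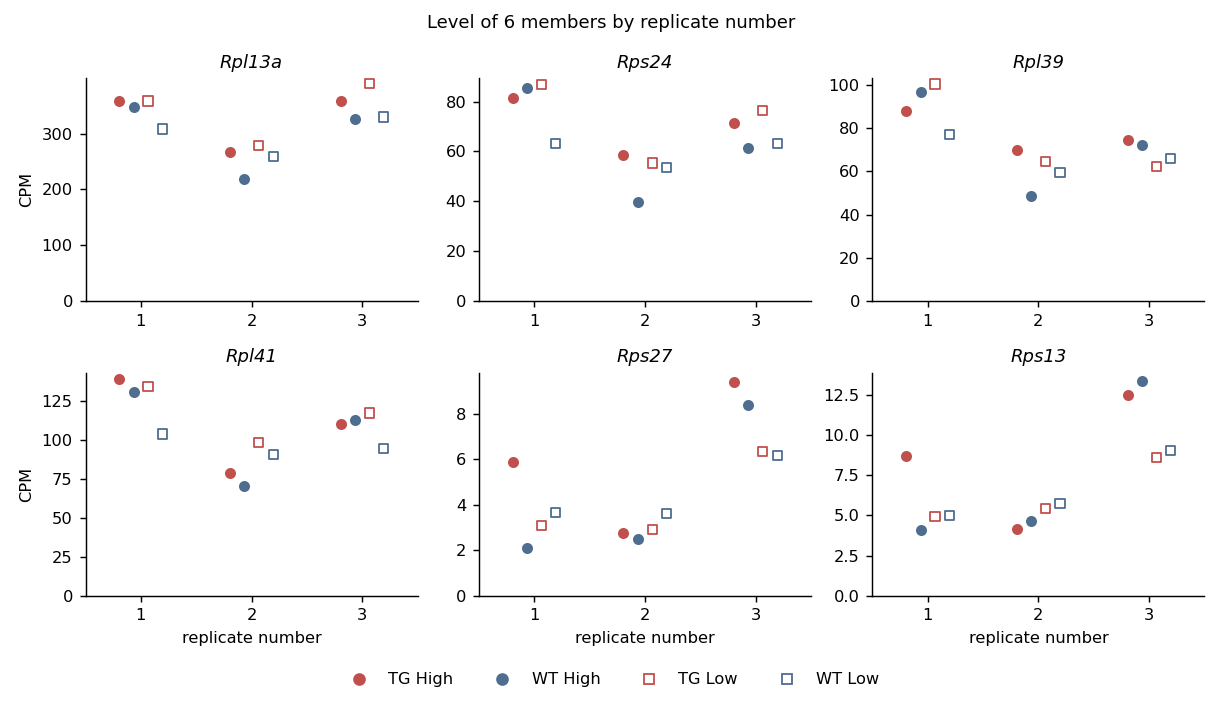
CPM of 6 members in each library by replicate number, with filled circles for the High gate and open squares for the Low gate, TG in red and WT in blue. Rpl13a, Rps24, Rpl39 and Rpl41 are lowest in number 2 in most groups, and Rps27 and Rps13 are highest in number 3 in all 4 groups.

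Markers of other cells moved with the replicate number. The summed level of 5 B cell markers was 161.0 to 276.2 CPM in the 4 libraries numbered 1 and 31.2 to 73.3 CPM in the other 8, with all 5 detected. The 6 proliferation genes summed to 163.3 to 330.0 CPM in number 1 and 13.8 to 46.6 CPM in the others, and the 2 plasma cell markers to 7.39 to 17.9 CPM and 0.306 to 1.64 CPM. The 6 myeloid or dendritic cell markers summed to 1.82 to 89.5 CPM in number 1 and 0.375 to 1.57 CPM in the others, and Itgax was at 0 in all 4 libraries numbered 3. The 4 NK cell markers summed to 1.49 to 17.0 CPM and 0.169 to 4.47 CPM, with Ncr1 at 0 in number 3. The 5 erythroid markers summed to 0.154 to 2.15 CPM and 0.211 to 1.99 CPM, with Hbb-bt at 0 in number 3, and the 2 CD8 T cell markers to 31.5 to 41.1 CPM and 26.9 to 38.0 CPM. Their part in the differences between numbers was not tested.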

How the data were processed

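The authors deposited 1 table of raw counts, in whole numbers for each Ensembl identifier. The submitters' processing notes name CASAVA 1.8.2, STAR 2.4, featureCounts 1.4.6 and build GRCm38, without settings. Per the labels' protocols, cDNA was amplified with the SMARTer Ultra Low kit and libraries were made with Nextera XT, which does not mark strand, so overlapping antisense genes cannot be told apart. Of 21839 identifiers, 21628 matched a symbol of GENCODE vM21 (GRCm38), the source of gene positions; the other 211 held 0.038% of counts. Totals ran from 6767828 to 23942479. Replicates differed by more than sampling noise (chi-square over its degrees of freedom 21.0 to 48.1), so each library counted once.

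The members and lists were chosen with earlier results of these data known. Tests used quasi-likelihood fits of edgeR 4.0.16 in R 4.3.3 with TMM scaling, filterByExpr at a minimum count of 10 and robust estimates, over 12 libraries with 4 groups, and Benjamini-Hochberg adjustment over 11766 genes at 0.05. The script was tested on simulated data for TG minus WT in CD25 High, with changes given to genes of higher level. It called 48% of the 1.5-fold and 95% of the 2-fold changes, with 7 false calls among 11622 genes. The simulated counts held no shift by replicate number, unlike the data. DESeq2 1.42.0, other scalings, no filter, a replicate block and left-out libraries were alternatives. Log2 fold changes are as fitted. Their intervals are 1.96 SE on each side, which is narrower than the p-values of the tests imply. Exact permutation of 3 against 3 cannot give a two-sided p below 0.1 and was not used.

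The labels number the replicates without saying what the numbers mark. Deviations from group means over all tested genes correlated at 0.34 to 0.83 between same-numbered libraries of different groups (18 pairs) and at -0.69 to 0.20 between differently numbered ones (36 pairs). By this measure the samples are paired by number, a pairing that rests on the data alone. Named genes were, per comparison, the 3 members with the smallest p in each direction, the 6 highest and 6 lowest tested members per length, Rpsa, the stalk genes, each paralogue pair, untested members, and the 5 with the smallest p per difference of numbers. Rpl7a, Rps3a1, Rpl19, Eef1a1, the Eif3 subunits and the examples without overlap were chosen after their values were seen. Some members that the rule would name are not reported here by name; counts and medians include them.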

Additional observations from a re-analysis of the deposited data

Results flagged for a closer look

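Reads in rows outside the set carried ribosomal protein names. The table had 19 such rows, 17 named as pseudogenes and 2, Rps4l and Rpl6l, that the annotation does not class as protein coding. They held 0.000568% of the counts in WT High replicate 2, the lowest library, and 0.00141% in TG Low replicate 1, the highest. Both values were above the limit that a count of 0 allows, which was 1.25e-05% to 4.43e-05% over the libraries. Rps4l had the most reads, from 18 in TG High replicate 2 to 158 in TG Low replicate 1, and Rpl28-ps4 had 0 in all 12 libraries.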

How the results depend on the processing

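No member was called between genotypes, between gates or in the difference of effects under any alternative, with 0 called whenever 1 library was left out, without or with the replicate block. The replicate block itself called 0 members in each of the 5 comparisons and changed no call; with it, 9 members in the High gate and 5 in the Low gate had an unadjusted p under 0.05 for TG minus WT, against 2 and 0 without it (10.7% and 5.95% of members with the block, where 3.55% and 3.25% of all tested genes had one). Over single libraries left out, the median log2 difference of members ran from -0.01 to 0.27 for TG minus WT in High, 0.10 to 0.17 in Low, -0.05 to 0.06 for High minus Low in TG, -0.13 to 0.16 in WT and -0.12 to 0.14 for the difference of effects; with the block the ranges were 0.03 to 0.23, 0.09 to 0.25, -0.03 to 0.04, -0.08 to 0.12 and -0.10 to 0.10. Members differing by replicate number were 13 to 33 with 1 library left out, 24 to 35 under other scalings, without the filter and with DESeq2, and 6 without the 4 libraries numbered 1, where fewer samples were fitted. The rank correlation of level with shared windows was -0.46 with 100-base windows. Of the members named by p, Rpl9 in the High gate ran from -0.35 without TG High replicate 3 to 0.090 without WT High replicate 3 and was 0.06 without TG High replicate 2 (0.026 without TG High replicate 2 and 0.043 without WT High replicate 3 with the block), and Rpl31 ran from -0.30 without TG High replicate 1 to 0.0039 without WT High replicate 1; the cause was not tested. The other 927 alternative values of named members kept their sign and side. Low counts limited Rpl28 and Rps29, whose SEs in TG (0.38 and 0.44) were above the members' median of 0.18.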
